A study of Mus musculus with 3 samples.

Results

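The genes described here are 10 T cell checkpoint receptors and ligands of the mouse: the receptors *Pdcd1* (PD-1), *Ctla4*, *Lag3*, *Havcr2* (TIM-3), *Tigit* and *Vsir* (VISTA) and the ligands *Cd274* (PD-L1), *Pdcd1lg2* (PD-L2), *Cd80* and *Cd86*. They were found by gene symbol, and all 10 were among the 31053 genes of the deposited count tables. The values come from single-cell RNA-seq of live cells from brain tissue at the tumor injection site, cut out to enrich for tumor tissue. Leukocytes were enriched on a Percoll gradient before the live cells were sorted. All mice were female wild-type C57BL/6 mice, 6 to 8 weeks old, that carried BT0309 brain tumor-initiating cells in the right striatum, a single luciferase-GFP line derived from NPcis mice (*Trp53*+/-/*Nf1*+/-). In the vehicle control group the mice received saline by intraperitoneal injection, and in the niacin group they received niacin (vitamin B3) at 100 mg/kg each day in the same way, in both groups from day 7 after implantation until collection at 4 weeks. According to the labels, each library pooled the tissue of 4 brains. The study's methods give 5 vehicle mice for 1 replicate and 10 niacin mice for 2, which does not match 4 brains in each. Which mice went into each library is not stated. Here 1 vehicle library (vehicle control replicate 2) and 2 niacin libraries (replicates 1 and 2) were analysed, so values of the treatment are given side by side without a test.

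Checkpoint receptors are surface proteins that dampen the response of an activated T cell when they meet a ligand on a neighbouring cell. PD-1 binds PD-L1 and PD-L2, CTLA-4 competes with the costimulatory receptor CD28 for CD80 and CD86, and LAG-3, TIM-3, TIGIT and VISTA act through other partners, among them MHC class II for LAG-3, galectin-9 for TIM-3 and the poliovirus receptor family for TIGIT. In brain tumors the ligands are known mainly from macrophages, microglia, dendritic cells and tumor cells, the receptors from infiltrating lymphocytes, and TIM-3 and VISTA also from myeloid cells.

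The libraries held 2270, 2145 and 2532 barcodes (vehicle, niacin replicate 1 and niacin replicate 2, the order used throughout) with 8301228, 9373321 and 10359526 UMIs, the unique molecular identifiers that each count 1 captured transcript. Of 5571 distinct barcodes, 924 occurred in more than one library, and these made up 21.3%, 42.8% and 35.5% of the barcodes of the 3 libraries. Each such barcode was kept only in the library with its highest UMI total, which left 1324, 1420 and 1599 cells after filtering, with median depths of 2982.5, 5068.5 and 5212 UMIs. Cells were classed by lineage marker genes, none of them a member, and class names stand for cells that carried those markers (microglia for microglia-like cells, and so on). There were 198, 126 and 146 T cells, 461, 854 and 1001 microglia, 242, 6 and 21 monocytes and macrophages, 27, 62 and 48 nonclassical monocytes and 39, 123 and 125 choroid plexus cells. Of these, 69 of 470 T cells, 85 of 2316 microglia, 62 of 269 monocytes and macrophages, 10 of 137 nonclassical monocytes and 17 of 29 dendritic cells lay at the limit of the class rule, with 2 markers or a lead of 1. Neutrophil markers summed to 281, 378 and 14168 CPM in nonclassical monocytes, so that this class of niacin replicate 2 stood apart, and their part in its values was not tested. The choroid plexus epithelium is not known to make the 10 members and served as the background of free RNA. In all 287 choroid plexus cells together, 0 UMIs of *Pdcd1*, *Ctla4* and *Tigit* were found among 2173631 UMIs, and the other members had between 1 and 16 UMIs, at most 7.36 CPM for *Vsir* (CPM, counts per 1000000 UMIs of the class). In the vehicle library alone *Cd274* and *Cd86* were higher in this class, at 23.2 CPM each (6 UMIs each in 39 cells), against 0 in both niacin libraries. The *Cd274* UMIs lay in 5 cells, but those of *Cd86* all lay in 1 cell and so do not measure a background.

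The members fell into those counted mostly in microglia and those counted mostly elsewhere. Microglia held 2609 of the 2741 *Lag3* UMIs (95.2%), 87.1% of *Vsir*, 85.0% of *Havcr2*, 79.1% of *Cd86* and 58.4% of *Cd80* UMIs, where the size of this class counts as well as the level in its cells. T cells held 432 of the 497 *Ctla4* UMIs (86.9%) and 51.4% of the *Pdcd1* UMIs. Monocytes and macrophages held 39.4% of the *Cd274* and 38.2% of the *Pdcd1lg2* UMIs, nearly all of them in the vehicle library (515 of 521 and 74 of 78), where most cells of this class were found. *Tigit* had 15 UMIs in all cells, 12 of them in T cells, which is too few for any comparison between classes.

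**Figure D1:**
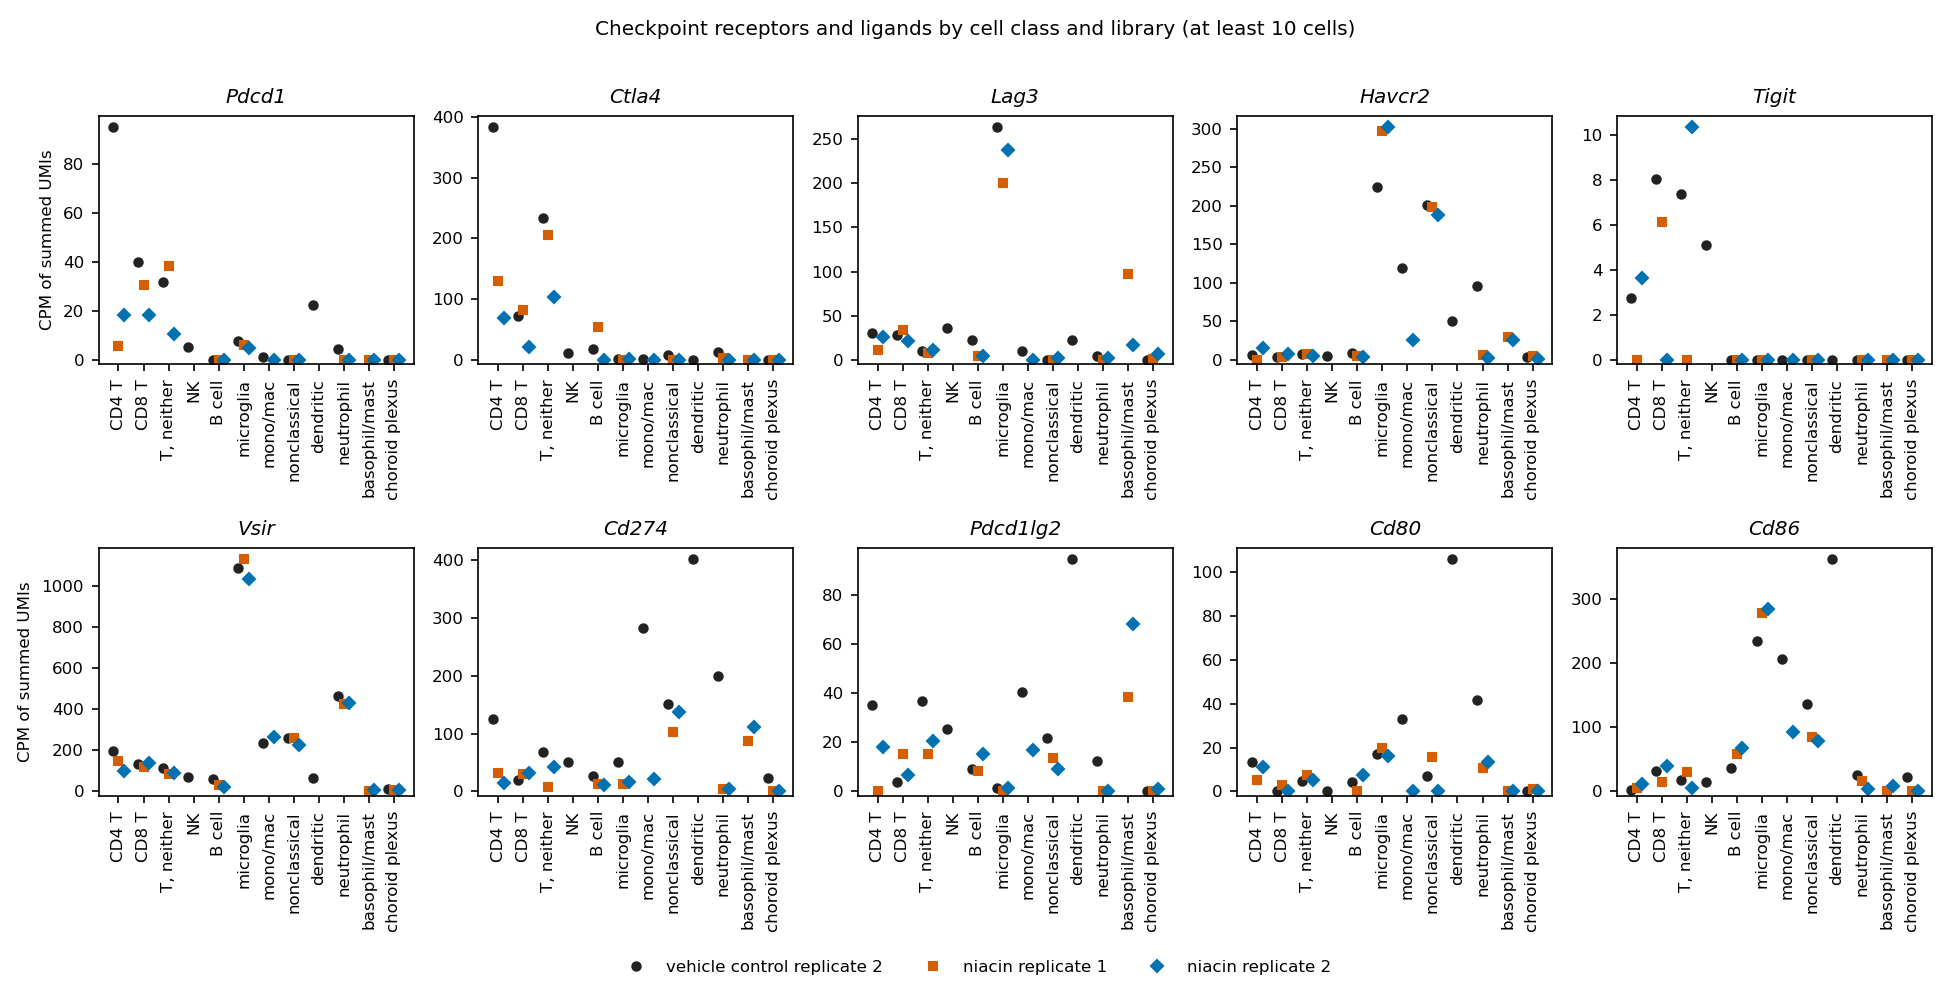
Levels of the 10 members by cell class. Each panel shows 1 gene, the y axis gives its CPM from UMIs summed over the cells of a class (linear, own scale per panel), and each point is 1 library with at least 10 cells of that class (NK, natural killer; mono/mac, monocyte and macrophage). *Lag3*, *Havcr2*, *Vsir* and *Cd86* are high in microglia in all 3 libraries, *Ctla4* is high in CD4 T cells of the vehicle library (384 CPM), and *Cd274* is high in dendritic cells of the vehicle library (401 CPM).

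The promoter windows of 4 members are shown as examples of members with different class patterns. *Cd274* and *Pdcd1lg2*, adjacent genes, were both higher in nonclassical monocytes than in microglia. *Havcr2* was higher in microglia than in T cells, and *Ctla4* was higher in T cells than in microglia. The filter on low counts of the tests below fixed the direction for *Pdcd1lg2*, *Havcr2* and *Ctla4*, so the windows are a description. Each window runs from 250 bases before to 50 bases after the RefSeq transcription start (GRCm38.p6, + strand). In the order above the windows lie at chr19:29367188-29367487, chr19:29410669-29410968, chr11:46454681-46454980 and chr1:60908775-60909074. Capitals mark matches to 1 of 4 short motifs searched on both strands: GAGGAA (the core of ETS factors such as PU.1), GAAANNGAA (interferon regulatory factors), TGACTCA (AP-1) and TTCNNNGAA (STAT).
Cd274: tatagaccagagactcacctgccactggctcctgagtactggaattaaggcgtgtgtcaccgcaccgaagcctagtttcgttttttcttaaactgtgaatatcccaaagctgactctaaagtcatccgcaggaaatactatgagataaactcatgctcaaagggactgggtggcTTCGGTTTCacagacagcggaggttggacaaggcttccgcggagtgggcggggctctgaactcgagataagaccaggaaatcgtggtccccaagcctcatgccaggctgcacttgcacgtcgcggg
Pdcd1lg2: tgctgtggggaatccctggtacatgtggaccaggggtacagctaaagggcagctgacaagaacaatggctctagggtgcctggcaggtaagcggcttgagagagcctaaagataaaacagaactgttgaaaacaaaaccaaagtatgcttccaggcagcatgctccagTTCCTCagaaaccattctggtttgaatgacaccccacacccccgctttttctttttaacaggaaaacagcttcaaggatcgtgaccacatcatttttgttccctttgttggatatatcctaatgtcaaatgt
Havcr2: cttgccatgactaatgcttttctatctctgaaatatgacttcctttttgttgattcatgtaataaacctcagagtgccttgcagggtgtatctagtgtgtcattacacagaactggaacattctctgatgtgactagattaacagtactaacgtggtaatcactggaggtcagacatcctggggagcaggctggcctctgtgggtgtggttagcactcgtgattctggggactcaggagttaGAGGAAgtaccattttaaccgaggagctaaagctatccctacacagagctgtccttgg
Ctla4: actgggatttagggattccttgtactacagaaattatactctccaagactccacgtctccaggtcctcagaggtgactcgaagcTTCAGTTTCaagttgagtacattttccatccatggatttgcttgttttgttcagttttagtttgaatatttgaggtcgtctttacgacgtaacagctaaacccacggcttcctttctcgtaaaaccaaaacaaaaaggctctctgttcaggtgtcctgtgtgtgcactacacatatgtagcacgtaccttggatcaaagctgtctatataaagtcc

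Of the 10 members, 8 had a promoter in the RefSeq table, and *Lag3* and *Cd86* had none there. The interferon regulatory factor letters were found in 2 of the 8, *Cd274* (76 bases before the start) and *Ctla4* (166 bases before it), against 8.56% of all 32851 promoters of the same length. The ETS letters were found in *Havcr2* (8 bases before the start), *Pdcd1lg2* (82 bases before it) and *Pdcd1*, against 28.3% of all promoters, and did not overlap the other motif. The AP-1 letters (5.20% of all promoters) and the STAT letters (8.30%) were in none of the 8. These are matches of letters and not measured binding sites.

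*Ctla4*, the receptor that takes CD80 and CD86 from CD28, was the only member called between CD4 and CD8 T cells among those that passed the filter on low counts. In CD4 T cells its level was 384 CPM in the vehicle library (141 UMIs, 36 of 65 cells), 130 CPM in niacin replicate 1 (24 UMIs, 13 of 37 cells) and 69.1 CPM in niacin replicate 2 (19 UMIs, 8 of 47 cells). In CD8 T cells it was 72.2, 82.6 and 20.7 CPM (10 of 41, 14 of 60 and 7 of 59 cells). The CD4 value was above the CD8 value in each of the 3 libraries, by the least in niacin replicate 1, although the ranges of the classes over libraries overlapped. On summed counts with the library as a block, *Ctla4* was lower in CD8 than in CD4 T cells by a log2 difference of -1.58 (SE 0.273, edgeR adjusted p = 2.41e-04). It was 1 called member of 3 tested, and 4.53% of all 4919 genes tested were called. The call rested on the vehicle library (without it -0.995, adjusted p = 0.137) and on the test (DESeq2 adjusted p = 0.0645, no library block 0.305, cells thinned to 1000 UMIs 0.404). Without the shared barcodes the difference was -1.87 (adjusted p = 4.69e-07).

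After each cell was thinned to 1000 UMIs, which puts cells of different depth on 1 footing, 32.3%, 13.9% and 2.22% of the CD4 T cells and 4.88%, 13.3% and 5.08% of the CD8 T cells held a *Ctla4* UMI. By this measure the CD4 share was clearly higher in the vehicle library only. It was close to the CD8 share in niacin replicate 1 and below it in niacin replicate 2. The unthinned shares were 55.4%, 35.1% and 17.0% in CD4 and 24.4%, 23.3% and 11.9% in CD8 T cells, at median depths of 4878 to 7225 UMIs. In neutrophils, which should lack the receptor, 4 of 196 cells held a *Ctla4* UMI, at median depths of 1771 to 7273.5 UMIs, and in choroid plexus cells 0 of 287, at 4861 to 7182 UMIs. B cells had 17.9, 54.0 and 0 CPM (17 UMIs in 4 of 111 cells), a range that held the CD8 value of niacin replicate 2. The T cells with a UMI of neither *Cd4* nor *Cd8a* or *Cd8b1*, 88, 28 and 38 in number, are called double-negative by these counts alone. Their leading genes held the gamma chain gene *Tcrg-C1*, but also the beta chain genes *Trbc1* and *Trbc2* and the natural killer marker *Klra7*. Natural killer markers summed to 814, 749 and 372 CPM in them, 457, 281 and 168 CPM in CD8 and 59.9, 10.8 and 3.64 CPM in CD4 T cells. The double-negative T cells had *Ctla4* at 234, 206 and 103 CPM. These levels lay above the CD8 T cells of every library and above the CD4 T cells of both niacin libraries. With the *Foxp3*-positive cells left out, the levels of double-negative T cells were 78.9, 143 and 72.3 CPM. The vehicle level was then close to that of CD8 T cells without such cells (72.2 CPM). The 7 T cells with UMIs of both kinds held 52 *Ctla4* UMIs. Against natural killer cells, T cells could be tested only with all barcodes kept, in the vehicle library and niacin replicate 2, where 1 of 6 members tested was called and 3.2% of all 6689 genes tested. *Ctla4* was higher in T cells (log2 4.94, SE 0.669, edgeR adjusted p = 2.71e-04), a direction the filter fixed, as natural killer cells held 4 *Ctla4* UMIs with each barcode kept once.

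*Ctla4* was concentrated in T cells with a UMI of *Foxp3*, the transcription factor that defines regulatory T cells. These were 46 of 470 T cells (9.79%) and held 231 of the 432 *Ctla4* UMIs (53.5%). In the vehicle library the level was 1142 CPM in 32 *Foxp3*-positive and 114 CPM in 166 *Foxp3*-negative T cells. In niacin replicate 1 it was 406 CPM in 8 positive and 96.2 CPM in 118 negative cells, and in niacin replicate 2 it was 853 CPM in 6 positive and 45.4 CPM in 140 negative cells. The positive cells were somewhat shallower (median 4509.5 against 5816 UMIs over all libraries). The counting intervals of the positive and negative cells did not overlap in any of the 3 libraries. *Foxp3*-positive cells were 16.2% (95% exact binomial interval 11.3% to 22.0%) of the T cells in the vehicle library, 6.35% (2.78% to 12.1%) in niacin replicate 1 and 4.11% (1.52% to 8.73%) in niacin replicate 2. With the *Foxp3*-positive cells left out, an alternative chosen after seeing the data, *Ctla4* was still lower in CD8 than in CD4 T cells (log2 difference -1.22, adjusted p = 0.00225).

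**Figure D2:**
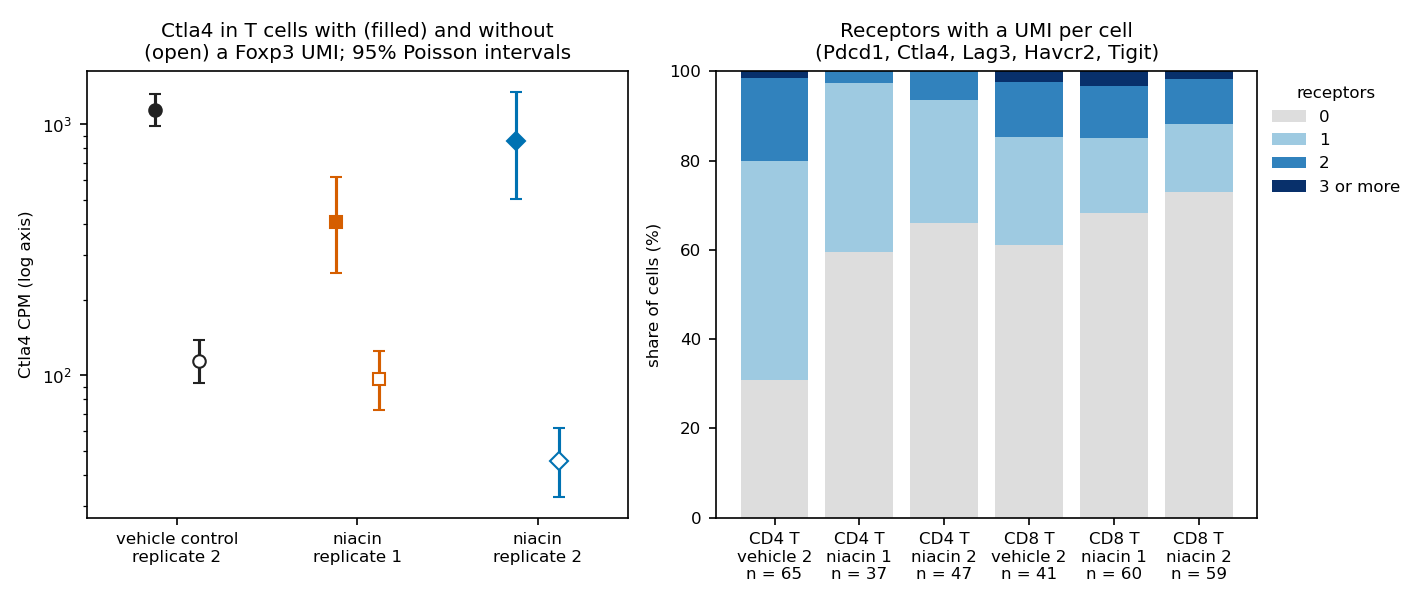
*Ctla4* and *Foxp3* in T cells, and receptors per T cell. Left, *Ctla4* CPM (log axis) in T cells with (filled) and without (open) a *Foxp3* UMI, 1 pair per library, with 95% exact Poisson intervals that cover counting error only. Filled points lie above open points in all 3 libraries. Right, the share of CD4 and CD8 T cells of each library in which 0, 1, 2 or at least 3 of the 5 receptors had a UMI, with 2 or more in 13 of 65 vehicle CD4 T cells.

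*Pdcd1* encodes PD-1, which recruits phosphatases to the T cell receptor complex. Its level in CD4 T cells was 95.2 CPM in the vehicle library (35 UMIs, 14 of 65 cells), 5.42 CPM in niacin replicate 1 (1 UMI) and 18.2 CPM in niacin replicate 2 (5 UMIs). In CD8 T cells it was 40.1, 30.6 and 18.4 CPM (5 of 41, 7 of 60 and 7 of 59 cells). The order of CD4 and CD8 T cells turned between the libraries, and the difference over libraries was not called (log2 -0.26, SE 0.46, edgeR adjusted p = 0.876). The levels of CD4, CD8 and double-negative T cells (26.8 ± 14.6 CPM, SD over 3 libraries) overlapped, and all 3 classes lay above microglia in the 2 libraries other than niacin replicate 1, where CD4 T cells did not. Among all T cells, *Pdcd1* was at 63.0 CPM in the 128 cells with a UMI of *Tox*, a transcription factor of exhausted T cells, and at 22.0 CPM in the other 342. By library the levels were 102 against 33.0 CPM in the vehicle library, 29.6 against 23.03 CPM in niacin replicate 1 and 31.7 against 9.37 CPM in niacin replicate 2, with counting intervals that overlapped in both niacin libraries.

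*Pdcd1* was also counted in microglia, at 7.57, 5.98 and 4.71 CPM (19, 25 and 22 UMIs in 55 of 2316 cells). That is little. In nonclassical monocytes, B cells and choroid plexus cells 0 UMIs were found, with 95% exact Poisson intervals that reached 3.61, 5.06 and 1.70 CPM. Neutrophils held 1 UMI, with an interval up to 4.84 CPM. The 66 microglial UMIs gave 5.81 CPM (95% exact Poisson interval 4.49 to 7.39 CPM). That interval overlapped those of B cells and neutrophils, but not those of nonclassical monocytes and choroid plexus cells. T cell markers summed to 56.2, 25.6 and 31.7 CPM in microglia and to 3940, 5704 and 6138 CPM in T cells, and their part in the *Pdcd1* count was not tested. Of the microglia with a *Pdcd1* UMI, 13 of 16, 13 of 20 and 18 of 19 also held *Lag3*. Microglia with *Lag3* were deeper (median 7595, 6162 and 6489 UMIs) than those without it (1776, 2910 and 1809 UMIs), and the part of depth in this overlap was not tested.

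*Lag3*, the CD4-like receptor that binds MHC class II, was a gene of microglia in these libraries. Its level in microglia was 264, 200 and 237 CPM, against 28.1, 33.6 and 20.7 CPM in CD8 T cells and 29.9, 10.8 and 25.5 CPM in CD4 T cells. The lowest microglial value lay above the highest T cell value. A *Lag3* UMI was found in 48.8%, 49.8% and 50.05% of the microglia (17.9%, 17.6% and 19.2% after thinning), at median depths of 3540, 4809.5 and 4601 UMIs, and in 0 of 39, 1 of 123 and 5 of 125 choroid plexus cells, at 4861, 7182 and 5494 UMIs. In nonclassical monocytes, 1 UMI was found in 137 cells, and in monocytes and macrophages 17 UMIs in 242 cells of the vehicle library and 0 in 21 cells of niacin replicate 2. Neutrophils held 2 UMIs in 196 cells. In mast cells and basophils *Lag3* reached 96.7 CPM in niacin replicate 1 (10 UMIs in 5 of 27 cells) and 17.1 CPM in niacin replicate 2 (2 UMIs).

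*Havcr2* encodes TIM-3, which is known from dendritic cells, macrophages and exhausted T cells. Microglia had it at 225, 298 and 302 CPM and nonclassical monocytes at 202, 199 and 188 CPM, so that the lowest microglial value lay just above the highest value of nonclassical monocytes. Monocytes and macrophages had 120 CPM in the vehicle library and 25.2 CPM in niacin replicate 2 (6 UMIs). In all T cells *Havcr2* was at 5.61, 3.09 and 8.66 CPM (6, 2 and 8 UMIs), and in choroid plexus cells at 3.87, 4.63 and 1.20 CPM, with overlapping counting intervals in each library, so that *Havcr2* in T cells was not distinguishable from the background at this depth.

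*Vsir* encodes VISTA, a B7-family protein that acts as a receptor and as a ligand, and it was counted in most classes. Microglia had it at 1089, 1133 and 1037 CPM, neutrophils at 467, 424 and 432 CPM and nonclassical monocytes at 259, 262 and 227 CPM, and these 3 classes did not overlap. CD4 T cells had 196, 146 and 102 CPM and CD8 T cells 132, 119 and 138 CPM, which overlapped (log2 difference -0.07, SE 0.22, edgeR adjusted p = 0.936). B cells were lower, at 62.7, 29.1 and 22.6 CPM. *Vsir* lies inside *Cdh23* on the other strand (chr10:60346851-60372684, GRCm38).

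*Cd274* encodes PD-L1, the ligand of PD-1, and *Pdcd1lg2* encodes PD-L2, its second ligand. Both lie on the + strand of chromosome 19 behind *Jak2*, a kinase of interferon signalling, with 54374 bases between *Jak2* and *Cd274* and 22823 bases between *Cd274* and *Pdcd1lg2* (chr19:29367455-29388095 and chr19:29410919-29471161, GRCm38). Nonclassical monocytes, which patrol the vessel wall, had *Cd274* at 151, 103 and 137 CPM (131 ± 25 CPM, SD over 3 libraries), the highest mean among the classes with at least 10 cells in each library, although the ranges of neutrophils and CD4 T cells overlapped theirs. Without niacin replicate 2 their difference from microglia was log2 2.38 (edgeR adjusted p = 7.38e-05). Microglia had 50.2, 13.1 and 17.1 CPM, below the nonclassical monocytes in every library. In the vehicle library the highest levels were those of dendritic cells (401 CPM, 72 UMIs in 15 of 23 cells), monocytes and macrophages (282 CPM, 515 UMIs in 142 of 242 cells) and neutrophils (200 CPM, 48 UMIs in 23 of 89 cells). Mast cells and basophils had 87.0 and 111 CPM in the niacin libraries.

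*Pdcd1lg2* was a gene of few cells. In the vehicle library it was at 94.7 CPM in dendritic cells (17 UMIs) and 40.5 CPM in monocytes and macrophages (74 UMIs). There it was at 36.9 CPM in double-negative T cells, 35.4 CPM in CD4 T cells (13 UMIs) and 21.6 CPM in nonclassical monocytes (3 UMIs). In microglia it was at 1.59, 0 and 1.28 CPM (10 UMIs in 2316 cells). Mast cells and basophils had 38.7 CPM (4 UMIs) and 68.3 CPM (8 UMIs) in the niacin libraries. T cells as a whole had 27.1, 10.8 and 14.1 CPM, above microglia in each library. An antisense gene overlaps *Pdcd1lg2*, and the counts of both are told apart by strand only.

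*Cd80* and *Cd86* encode the B7 proteins that CD28 and CTLA-4 share. *Cd86* was at 234, 278 and 284 CPM in microglia, at 137, 85.0 and 77.8 CPM in nonclassical monocytes and at 35.8, 58.1 and 67.9 CPM in B cells. Microglia lay above nonclassical monocytes in each library, and the lowest value of nonclassical monocytes (77.8 CPM) lay above the highest of B cells (67.9 CPM). *Cd80* was at 17.1, 19.8 and 16.3 CPM in microglia, at 32.8 CPM in vehicle monocytes and macrophages, and at 41.7, 10.6 and 13.6 CPM in neutrophils. Dendritic cells, the textbook source of both, could be measured in the vehicle library alone, where *Cd86* was at 362 CPM and *Cd80* at 106 CPM. In CD8 T cells *Cd86* was at 32.1, 15.3 and 39.0 CPM and in CD4 T cells at 2.72, 5.42 and 10.9 CPM, with CD8 above CD4 in each library and 30 UMIs against 5 in all. The 10 monocyte and macrophage markers summed to 1327, 1195 and 1262 CPM in CD8 and to 370, 401 and 342 CPM in CD4 T cells, and their part in this difference was not tested. *Cd86* did not pass the filter on low counts there, and without that filter it was called (log2 2.30, edgeR adjusted p = 0.0215).

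The dendritic cells of the vehicle library were few, and the ligands were uneven among them. In the 7 cells with at least 2 of *Ccr7*, *Fscn1* and *Ccl22*, markers of mature dendritic cells that also served to class the cells, *Cd274* was at 1443 CPM (37 UMIs in 7 of 7 cells), *Cd80* at 585 CPM (15 UMIs in 5 cells) and *Cd86* at 468 CPM (12 UMIs in 3 cells). In the other 16 cells the levels were 227, 26.0 and 344 CPM. *Pdcd1lg2* went the other way, with 39.0 CPM (1 UMI) in the 7 and 104 CPM (16 UMIs) in the 16 cells.

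Monocytes and macrophages were compared with microglia in the 2 libraries with at least 10 cells of both, vehicle and niacin replicate 2. Of the 8 members that passed the filter, 5 were called, while 23.3% of all 10242 genes tested were called. Monocytes and macrophages were lower in *Lag3* (log2 -4.90, SE 0.552, edgeR adjusted p = 4.47e-07), *Vsir* (-1.85, SE 0.464, adjusted p = 0.00474) and *Havcr2* (-1.64, SE 0.519, adjusted p = 0.0234). They were higher in *Pdcd1lg2* (4.47, SE 0.73, adjusted p = 6.17e-05) and *Cd274* (2.03, SE 0.50, adjusted p = 0.00418). *Pdcd1lg2* had 10 UMIs in the microglia of these libraries and *Lag3* 17 UMIs in the monocytes and macrophages (0 in niacin replicate 2), so each passed the filter through the other class, which fixed its direction. For *Cd274* the distance was 282 against 50.2 CPM in the vehicle library and 20.99 (5 UMIs) against 17.1 CPM in niacin replicate 2. *Pdcd1*, *Cd80* and *Cd86* were not called (adjusted p = 0.259, 0.672 and 0.397). The calls of *Cd274* and *Havcr2* were lost with DESeq2 (adjusted p = 0.0762 and 0.0764) and without the library block (0.12 and 0.175), and that of *Havcr2* also with thinned cells (0.193).

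Nonclassical monocytes were compared with monocytes and macrophages in the same 2 libraries. Of 4 members that passed the filter 1 was called, *Havcr2*, and 12.2% of all 4957 genes tested were called. *Havcr2* was higher in nonclassical monocytes, with 202 against 120 CPM in the vehicle library and 188 against 25.2 CPM in niacin replicate 2 (log2 1.41, SE 0.438, edgeR adjusted p = 0.0274). This call was lost under 5 of the 9 alternatives in which it was tested (adjusted p up to 0.404). *Cd274*, *Vsir* and *Cd86* were not called (adjusted p = 0.802, 0.861 and 0.433).

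A further 2 comparisons were added after the levels had been seen, because they use all 3 libraries. In T cells against microglia, 9 members passed the filter and 9 were called, where 56.4% of all 10573 genes tested were called. *Ctla4* (log2 7.41, SE 0.378, edgeR adjusted p = 1.24e-07), *Pdcd1lg2* (4.27, SE 0.594, adjusted p = 1.40e-04), *Pdcd1* (2.46, SE 0.303, adjusted p = 5.85e-05) and *Cd274* (1.01, SE 0.212, adjusted p = 0.00212) were higher in T cells. *Havcr2* (-5.32, SE 0.26), *Cd86* (-3.67, SE 0.199), *Lag3* (-3.33, SE 0.199), *Vsir* (-2.95, SE 0.193) and *Cd80* (-1.58, SE 0.356) were lower, with adjusted p-values from 1.05e-07 to 0.00335. *Ctla4* and *Pdcd1lg2* had 9 and 10 UMIs in microglia and passed the filter through T cells, and *Havcr2* and *Cd80* had 16 and 14 UMIs in T cells and passed it through microglia. The direction of these genes was fixed by the filter, the size of their log2 differences rests on these few UMIs, and the count of called members is no support for it. The call of *Cd274* was lost without the library block (adjusted p = 0.131) and with thinned cells (0.113).

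In nonclassical monocytes against microglia, 7 members passed the filter and 5 were called, where 44.2% of all 9979 genes tested were called. *Cd274* (log2 2.68, SE 0.292, edgeR adjusted p = 3.80e-06) and *Pdcd1lg2* (4.10, SE 0.972, adjusted p = 0.00338) were higher in nonclassical monocytes. *Lag3* (-7.63, SE 0.478, adjusted p = 1.40e-08), *Vsir* (-2.02, SE 0.226, adjusted p = 5.07e-06) and *Cd86* (-1.39, SE 0.228, adjusted p = 1.86e-04) were lower. The *Lag3* value rests on 1 UMI in nonclassical monocytes and depends on the prior count of the fit. *Lag3* passed the filter through microglia and *Pdcd1lg2* through nonclassical monocytes, which fixed their directions. *Havcr2* did not pass the threshold (-0.39, SE 0.202, adjusted p = 0.140) and did so in 4 of 14 alternatives (adjusted p from 8.57e-04 to 0.0447, among them the fit without the vehicle library, 0.0229). *Cd80* was not called (adjusted p = 0.187).

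**Figure D3:**
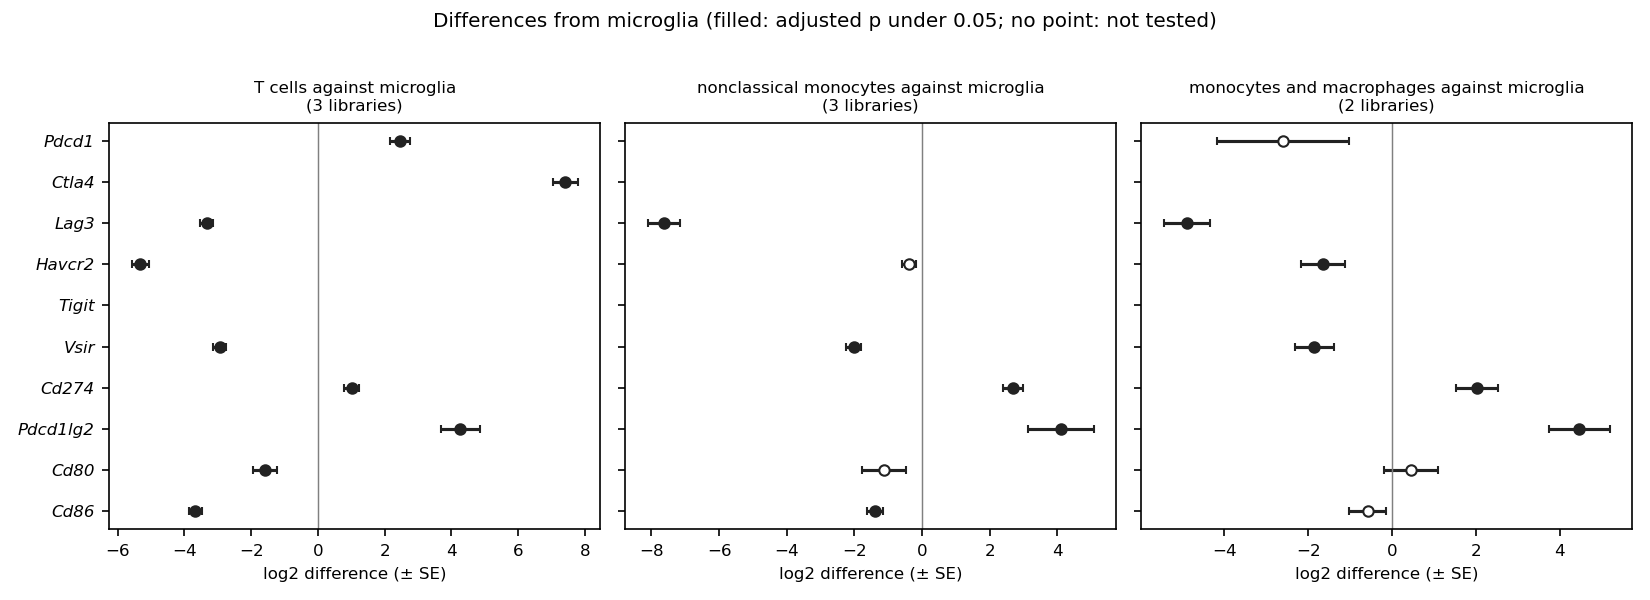
Differences of the members from microglia. Each point is the log2 difference of a class from microglia in the edgeR fit, with a standard error derived from the F statistic. The number of libraries stands above each panel, and filled points have an adjusted p under 0.05. In all 3 panels *Lag3* and *Vsir* lie left of 0 (lower than in microglia), and *Cd274* and *Pdcd1lg2* lie right of 0. The filter on low counts fixed the side of *Pdcd1lg2* in each panel and of *Lag3* in the panels of monocytes. The panels share the microglia counts and are not independent.

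*Pdcd1*, *Ctla4*, *Lag3*, *Havcr2* and *Tigit* were counted together in single T cells at a median depth of 5711 UMIs, at which a cell without a UMI may still express the gene. Of 470 T cells, 273 had a UMI of none of the 5, 144 of 1, 46 of 2 and 7 of at least 3. CD4 T cells with 2 or more were 13 of 65, 1 of 37 and 3 of 47, and CD8 T cells 14.6%, 15.0% and 11.9%. In CD8 T cells the pairs were led by *Ctla4* with *Lag3*, which were both counted in 11 cells, out of 19 cells with *Lag3* and 31 cells with *Ctla4*. *Pdcd1* and *Lag3* were both counted in 8 CD8 T cells, out of 19 cells with each. *Havcr2* was counted in 4 CD8 T cells, and 0 of these held *Pdcd1*. A UMI of *Mki67*, a gene of dividing cells, was found in 10 CD8 T cells, of which 4 held *Pdcd1*, 5 *Ctla4* and 4 *Lag3*, against 15, 26 and 15 of the other 150, at median depths of 6866 and 6594 UMIs.

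Between the vehicle library and the niacin libraries, the members differed by class. The ratios below compare the vehicle level with that of the 2 niacin libraries together, with intervals that cover counting error and not the spread between pools of mice, and with 1 vehicle library the effect of the treatment cannot be told apart from that of the pool. In T cells *Ctla4* was 3.13 times as high in the vehicle library (95% interval 2.55 to 3.86). With at most 1 marker of another lineage this ratio was higher still, as given under the processing below. Without that limit it was 1.74 (1.31 to 2.32) with the *Foxp3*-positive cells left out. In CD4 T cells the ratio went from 4.10 (2.90 to 5.91) to 2.11 (1.38 to 3.26) when they were left out. In double-negative T cells it went from 1.61 (1.13 to 2.34) to 0.802 (0.458 to 1.41). *Pdcd1* was 2.89 times as high in vehicle T cells (1.85 to 4.61), and 7.29 times in CD4 T cells (3.04 to 21.2). The niacin libraries themselves differed by 0.523 times in T cell *Ctla4* (replicate 2 over replicate 1).

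*Cd274* was higher in the vehicle library in several classes at once. The ratio was 3.29 in microglia (2.56 to 4.23), 2.36 in T cells (1.64 to 3.42), 5.75 in CD4 T cells (2.86 to 12.8) and 45.6 in neutrophils (16.7 to 174). It was 1.26 in nonclassical monocytes (0.75 to 2.03) and 0.964 there without the shared barcodes, and it was below 1 in CD8 T cells, where the vehicle level was 20.05 CPM and the niacin levels 30.6 and 32.1 CPM. The T cell ratio was higher with at most 1 marker of another lineage, as given under the processing below. Choroid plexus cells held *Cd274* at 23.2 CPM in the vehicle library (6 UMIs in 5 of 39 cells) and at 0 UMIs in 123 and 125 cells of the niacin libraries, so the background differed in the same direction. Markers of monocytes and macrophages summed to 344, 30.1 and 49.7 CPM in microglia and to 89.1, 36.1 and 14.4 CPM in choroid plexus cells, and their part in the *Cd274* counts was not tested. In neutrophils these markers summed to 2955, 5592 and 6277 CPM, lowest in the vehicle library, and the neutrophil markers to 138599, 338492 and 400806 CPM. The vehicle neutrophils were also shallower (median 1771 UMIs against 5059 and 7273.5).

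**Figure D4:**
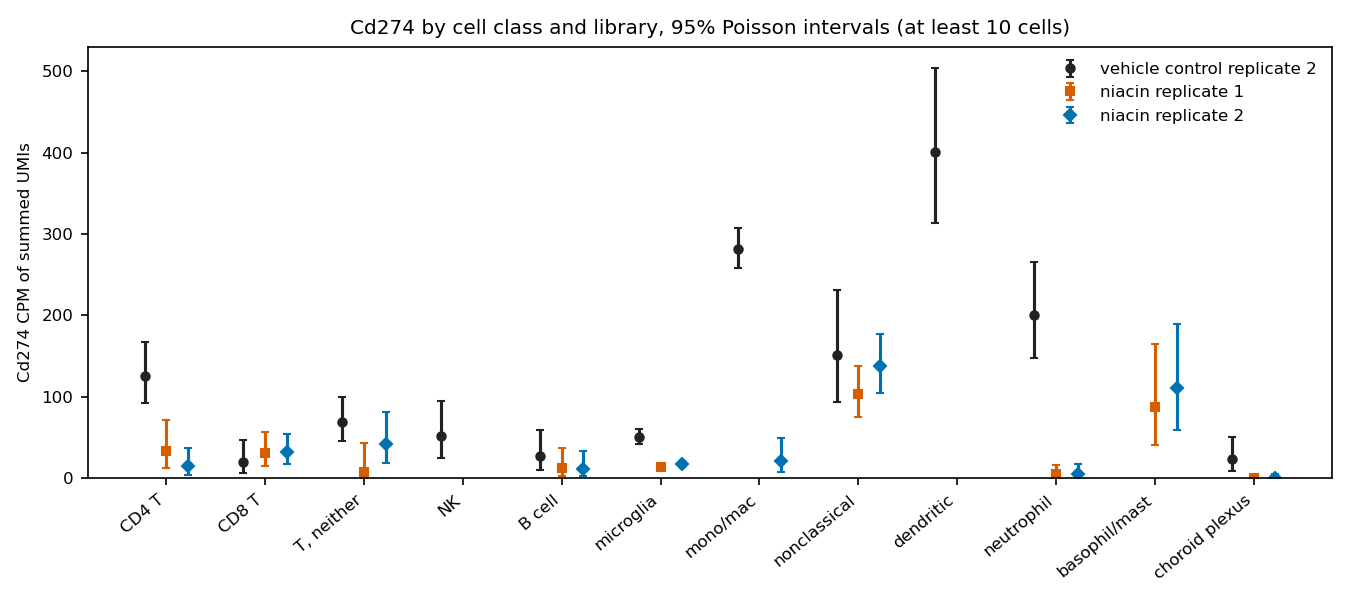
*Cd274* by cell class and library. The y axis gives *Cd274* CPM from UMIs summed over the cells of a class in 1 library with at least 10 such cells, with 95% exact Poisson intervals that cover counting error only. In nonclassical monocytes the 3 libraries overlap (151, 103 and 137 CPM), while in neutrophils the vehicle library (200 CPM) lies far above the niacin libraries (4.24 and 4.54 CPM).

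For other members the direction and size of the difference between the libraries depended on the class. In microglia *Havcr2* was lower in the vehicle library (ratio 0.75, 0.684 to 0.822) and so was *Cd86* (0.834, 0.761 to 0.913), while *Lag3* was higher (1.20, 1.10 to 1.31) and *Vsir* differed by little (1.01, 0.964 to 1.05). Without the shared barcodes the *Lag3* ratio was 1.06 and the *Vsir* ratio 1.14. In microglia the microglia markers summed to 17132, 22933 and 23095 CPM, lowest in the vehicle library. The monocyte and macrophage markers summed to 344, 30.1 and 49.7 CPM there. The part of these markers in the microglial ratios was not tested. The 2 niacin libraries lay within 1.02 times of each other for microglial *Havcr2* and *Cd86*, and 1.19 times apart for *Lag3*. In neutrophils *Havcr2* went with *Cd274*, at 95.9 CPM in the vehicle library and 6.36 and 2.27 CPM in the niacin libraries (ratio 21.9, 7.47 to 87.0), and *Cd80* less so (3.46, 1.32 to 8.96). In the same neutrophils *Vsir* had a ratio of 1.09 (0.877 to 1.35).

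Other genes of the pathway were taken from 3 lists of 20 genes. Of the genes tested between CD8 and CD4 T cells, 8 of 13 receptors, 2 of 6 ligands and 3 of 14 regulators were called, against 4.53% of all genes. Between CD8 and CD4 T cells, 13 of 19 other checkpoint and costimulatory receptors were tested, of which 3 were higher in CD8 T cells, led by *Cd160*, a receptor of HVEM (120, 116 and 190 CPM against 0, 16.2 and 0 CPM, adjusted p = 3.79e-08), and 5 were lower. *Tnfrsf4* (OX40), *Cd40lg* and *Icos*, costimulatory molecules, were lower in CD8 T cells with log2 differences of -4.03, -4.33 and -2.44 (edgeR adjusted p = 1.52e-09, 1.49e-08 and 1.09e-06). Of 14 regulators tested, *Nr4a2*, an immediate early nuclear receptor, was higher in CD8 T cells (2.98, adjusted p = 5.88e-05), and *Ikzf2* and *Foxp3*, genes of regulatory T cells, were lower (-1.07 and -2.85, adjusted p = 5.00e-04 and 0.00277). Of 6 other ligands tested, *H2-Aa* and *Lgals3* were lower in CD8 T cells (-2.07 and -1.45, adjusted p = 0.0191 and 0.0206). Several of these genes had few or no UMIs in 1 of the classes (*Cd160* and *Nr4a2* in CD4, *Cd40lg*, *Tnfrsf4*, *H2-Aa* and *Foxp3* in CD8 T cells) and passed the filter on low counts mainly through the other, so their directions were partly fixed by the filter and the list counts are a description. The median log2 differences of the receptor, ligand and regulator lists were -1.24, -0.28 and -0.08, against 0.00088 over all genes tested.

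Between T cells and microglia, 14 of 17 receptors tested were higher in T cells and 1 was lower, led by *Cd28*, *Icos*, *Tnfrsf18* and *Tnfrsf4* with log2 differences of 7.04, 5.04, 7.02 and 5.36. *Cd28*, the receptor that shares its ligands with CTLA-4, was at 277, 226 and 173 CPM in T cells and at 3.59, 0.717 and 1.71 CPM in microglia. Of 12 ligands tested 4 were higher and 5 lower in T cells, among the latter *Icosl* and *Nectin2*, ligands of ICOS and of the TIGIT family (-2.99 and -5.13). Of 18 regulators tested 12 were higher and 2 lower, led by *Ptpn22*, *Tcf7*, *Nt5e* and *Tox*. Leading genes such as *Cd28*, *Tnfrsf18* and *Tox* were near 0 in microglia, and *Nectin2* in T cells (1.87, 0 and 0 CPM), so their directions were fixed by the filter and the counts are no support. Of all genes tested here 56.4% were called, and the ligand count (9 of 12) is read against that share. The median log2 differences of the 3 lists were 5.63, 0.06 and 2.80, against -0.04 over all genes tested.

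Between myeloid classes the list counts stand beside 23.3% of all genes called for monocytes and macrophages against microglia, 12.2% for nonclassical monocytes against monocytes and macrophages and 44.2% for nonclassical monocytes against microglia. Against microglia, monocytes and macrophages were higher in 5 and lower in 2 of 12 ligands tested, with *Cd40* (131 against 10.4 CPM in the vehicle and 29.4 against 1.28 CPM in the niacin library), *Lgals3*, *H2-Aa* and *H2-Ab1* as the leading genes that were higher (edgeR adjusted p from 4.74e-07 to 6.08e-04). Of 9 receptors tested *Cd244* was higher (2.24, adjusted p = 3.35e-04), and of 12 regulators 2 were higher (*Nr4a1* and *Nr4a2*) and 2 lower (*Entpd1* and *Ikzf2*). Nonclassical monocytes were lower than monocytes and macrophages in 4 of 6 ligands tested, *H2-Aa*, *H2-Ab1*, *Lgals9* (the galectin-9 that binds TIM-3) and *Lgals3*. They were higher in *Ceacam1* and *Cd244* and lower in *Cd200r1* among 3 receptors tested, and higher in 3 of 8 regulators, *Nr4a1*, *Cblb* and *Ptpn11*. Against microglia, nonclassical monocytes were higher in 3 and lower in 1 of 6 receptors, higher in 3 and lower in 4 of 12 ligands, and higher in 7 and lower in 2 of 11 regulators, led by *Nr4a1*, the factor that nonclassical monocytes need (1059, 1034 and 870 CPM against 8.37, 10.8 and 9.42 CPM). Genes that were low in 1 class, such as *Cd200r1* in nonclassical monocytes (0, 2.24 and 4.58 CPM) and *Cd40*, *Nr4a1* and *Nr4a2* in microglia, passed the filter mainly through the other, so the filter partly fixed their directions and the list counts are a description. In the order of these comparisons, the medians of the receptor list were 0.85, 1.40 and 1.89, of the ligand list 0.76, -1.69 and -0.18 and of the regulator list 0.92, 0.99 and 1.89, against -0.11, -0.05 and -0.20 over all genes tested.

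Over the 32 points of class and library with at least 10 cells, the genes most like each member were found by the Pearson correlation of log2(CPM + 10) among 6340 genes, as a description of points that share libraries and depth. *Ctla4* was most like *Cd28* (0.93) and *Fam102a* (0.89), and *Pdcd1* most like *Icos* (0.86) and *Tcf7* (0.83), where *Cd28* and *Icos* are costimulatory receptors of T cells. *Lag3* was most like *Gpr34* (0.87), a marker used to class microglia, and *Otud1* (0.87). *Havcr2* was most like *Lair1* (0.94) and *Bmf* (0.93), *Vsir* most like *Gmip* (0.87) and *Btg2* (0.87), and *Cd86* most like *Slamf9* (0.92) and *Ctss* (0.90). *Cd274* was most like its neighbour *Jak2* (0.83) and *Dtx3l* (0.82), *Pdcd1lg2* most like *Malt1* (0.79) and *Coro2a* (0.77), and *Cd80* most like *Marcksl1* (0.82) and *Creb5* (0.81). *Tigit* had too few UMIs for this measure.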

How the data were processed

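Per the labels and the study's methods, cells were enriched on a Percoll gradient, sorted as live and captured with the 10x Genomics 3' v3.1 kit, and the authors aligned reads to mm10 and counted UMIs with Cell Ranger 3.1, which uses STAR. The deposited files hold raw UMI counts per gene and barcode. Cells with at least 200 genes and at most 20% mitochondrial UMIs were kept. A barcode found in several libraries was kept only in the library with its highest UMI total. A cell took the lineage with the most detected markers of 13 lists (at least 2, and at least 1 more than any other), and 239 of 4343 cells stayed unclassed. T cells were split by *Cd4* against *Cd8a* and *Cd8b1*. Scrublet (scanpy 1.11.5) called 15 cells (0.345%), too few to be relied on, so doublets were kept in the main values.

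UMI counts were summed per class and library and given as CPM with exact 95% Poisson intervals. Shares have exact binomial 95% intervals. Both cover counting error only. Counts summed over at least 10 cells per class and library entered edgeR 4.0.16 in R 4.3.3, with TMM scaling, its default filter on low counts and a quasi-likelihood F test. The SE of an edgeR log2 difference was derived from this test, as its absolute value divided by the square root of the F statistic. The model held the library as a blocking term. P-values were adjusted by Benjamini and Hochberg across the whole table, and an adjusted p under 0.05 was called. Libraries are pools of mice, so p-values measure the spread between 3 or 2 pools. T cells against natural killer cells and dendritic cells against monocytes and macrophages could not be tested, since, with each barcode kept once, only the vehicle library held at least 10 cells of both classes. The former was tested with all barcodes kept. The test was also run on simulated data, in which 100 genes were changed at each size of difference. All genes there had the same fixed dispersion, and libraries differed in depth only. The shares that follow describe this simpler setting and are not the power or error rate of the real tests. In it, edgeR recovered 66% of log2 differences of 2 and 7% of those of 1 between CD8 and CD4 T cells (4919 genes). The shares were 39% and 0% between monocytes and macrophages and microglia (10242 genes). Between nonclassical monocytes and monocytes and macrophages they were 28% and 2% (4957 genes). Against microglia they were 81% and 6% for T cells (10573 genes) and 65% and 1% for nonclassical monocytes (9979 genes). Of the simulated calls, 1.35%, 4.88%, 6.25%, 3.33% and 1.49% were false, in this order. Alternatives were DESeq2 1.42.0, another scaling, no filter on low counts, no library block, each library left out, other handling of shared barcodes, stricter class and cell filters, removal of high Scrublet scores and thinning. Coordinates come from the GRCm38 annotation, and promoters from RefSeq on GRCm38.p6.

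The 10 members are named in every comparison. Of each of the 3 lists, the 4 genes with the smallest adjusted p past the threshold were named, and for each member with at least 100 UMIs the 2 genes with the highest correlation. *Cd5* and *Eomes* were left out of the lists as class markers. The members and lists were chosen with earlier results of these data known.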

Additional observations from a re-analysis of the deposited data

Results flagged for a closer look

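*Pdcd1* drew attention because the sign of the difference between CD8 and CD4 T cells was not the same in the vehicle and the niacin libraries. On the log2(CPM + 10) scale, CD8 minus CD4 was -1.07 for vehicle mice, whereas the niacin libraries gave 1.40 (replicate 1) and 0.0087 (replicate 2). Replicate 2 was thus near 0, and the opposite sign rests on replicate 1, where CD4 T cells held 1 UMI. The difference between the groups was not tested, since there is 1 vehicle library.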

How the results depend on the processing

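Between CD8 and CD4 T cells, where 1 member was called, 0 were called with DESeq2, without the library block, with at most 1 marker of another lineage and with cells thinned to 1000 UMIs, 2 were called without the filter on low counts, and 0 to 2 with a library left out. For monocytes and macrophages against microglia (5 called), 3 were called with DESeq2, without the block and after thinning. For nonclassical monocytes against monocytes and macrophages (1 called), 0 were called with DESeq2, without the block, with at least 3 markers, with high Scrublet scores removed, after thinning and with at least 500 genes. For T cells against microglia (9 called), 5 were called after thinning. The numbers of all genes called moved without the block (from 223 to 52 for CD8 against CD4, from 2391 to 1465 and from 606 to 198 for the 2-library comparisons) and after thinning (to 20, 844 and 52, and from 5962 to 2861 and from 4410 to 1647 for T cells and nonclassical monocytes against microglia). With DESeq2 they were 57, 1301 and 234. With all barcodes kept, where these comparisons also gained niacin replicate 1 as well (3 libraries), they were 4097 and 1049. With at most 1 marker of another lineage, 33 were called for CD8 against CD4 and 3089 for T cells against microglia. For nonclassical monocytes against monocytes and macrophages, 275 were called with at least 3 markers, 360 with high Scrublet scores removed and 389 with at least 500 genes, and against microglia 2882 without niacin replicate 1 and 2639 without niacin replicate 2.

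Restricting T cells to at most 1 marker of another lineage raised the vehicle to niacin ratio of *Ctla4* from 3.13 to 5.35 and of *Cd274* from 2.36 to 3.77. Signs turned for values that were not called: *Pdcd1* in CD8 against CD4 T cells with DESeq2 (0.15), *Vsir* there with a library left out (-0.36 to 0.17), *Cd80* in monocytes and macrophages against microglia with DESeq2 (-0.43), *Cd274* in nonclassical monocytes against monocytes and macrophages without the block (-0.29) and with all barcodes kept (-0.18), and the *Ctla4* ratio of double-negative T cells without *Foxp3*-positive cells (0.80). Under the alternatives, 362 log2 differences of members kept direction and side of the threshold, 16 fell below it, 4 passed it and 6 changed sign. The cause of these changes was not tested. Two-library comparisons could not be run with a library left out or with shared barcodes removed.

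No paired analysis of niacin against vehicle was possible, because there is 1 vehicle library and the labels pair no libraries across the groups. The few UMIs of *Tigit* and *Havcr2* limit what can be said of them in T cells, and the part of depth was not tested. The number of cells limits every class under 10 cells.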
